A study of Mus musculus with 4 samples.

Results

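The genes described here encode the proteins of the mitochondrial ribosome. They were taken by name: every protein-coding gene whose symbol is Mrpl or Mrps followed by a number and at most 1 letter, which gave 78 of the 25509 gene rows in the count table. Of these, 51 encode proteins of the large subunit and 26 proteins of the small subunit. The remaining one, Mrps36, kept a ribosomal name but encodes a subunit that belongs to the oxoglutarate dehydrogenase complex. Mrps18a and Mrps30 are counted with the large subunit, where their proteins sit despite a small-subunit name. The study compared RNA from spleen cells of wild-type mice (2 libraries) with that of Trim21-/- mice (2 libraries), labelled as knockouts of the ubiquitin ligase gene Trim21. At the age of 8 weeks the animals had their back fur removed and, per the labels, received UVB at 100 mJ/cm2; the titles mark all 4 libraries as UV, so there is no unexposed group here. The labels describe courses of different lengths without saying which one these mice had. Nor do they state how many animals stand behind each genotype, so p-values measure the spread between these libraries.

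Mitochondria carry their own small genome, whose mRNAs encode core subunits of the respiratory chain and are translated inside the organelle. The ribosome that does this combines RNAs made in the mitochondrion with proteins encoded in the nucleus, made in the cytosol and imported. Many of these proteins descend from those of bacterial ribosomes, and others joined the particle later in evolution. In blood-forming tissue, red cell precursors depend on mitochondria for haem synthesis, whereas mature red cells have none.

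Library totals ran from 36173694 to 41924885 counts, and the 78 genes together held 64815 to 117617 counts per library. The lowest count of any of them was 187 and all 78 passed the filter on low counts. Trim21 had 1237 and 1912 counts in the wild-type libraries and 345 and 882 in the knockout libraries (log2 fold change -1.02 ± 0.42 SE, adjusted p = 0.17), so Trim21 counts remained in both and do not by themselves establish the label. Which part of the gene is deleted is not given in the labels. The library numbered 1 of each genotype carried Y-linked Eif2s3y with Xist near 0, and the library numbered 2 the reverse, so each genotype has 1 male-pattern and 1 female-pattern library. B cell and T cell markers were present in every library, and the liver, heart and skin markers Alb, Myh6 and Krt5 were at or near 0. Haemoglobin genes took 8.25% and 4.03% of the wild-type counts and 30.7% and 14.9% of the knockout counts.

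The mitochondrial ribosomal protein genes were higher in the knockout as a family. None passed the test singly in the main fit, which leaves out the male and female pattern. With the library number as a term, which coincides with that pattern, 47 of the 78 were called higher (60.3%, against 22.4% of all genes). With a correction for transcript length as well, chosen after seeing the data, 25 were called higher (32.1%, against 17.8%). Levels are given as CPM (counts per 1e+06, scaled by TMM), a scaling that sets the bulk of genes level between libraries. The median level of the 78 genes was 28.3 CPM and 14.9 CPM in wild-type libraries 1 and 2, and 49.1 CPM and 32.8 CPM in knockout libraries 1 and 2. All 78 had a positive log2 fold change, knockout over wild type, with a median of 0.78 and a range of 0.01 to 1.90, against a median of -0.06 over the 13532 genes tested. Scaled to library totals alone, 58 of the 78 were higher and their median was 0.25, while the median of all genes moved to -0.56 and the share of genes called higher and lower to 5.78% and 10.2%. With edgeR's quasi-likelihood test, 0 of the 78 were called higher or lower at an adjusted p under 0.05, although 5.90% of all tested genes were called higher and 0.392% lower. At an unadjusted p under 0.05 there were 19 (24.4%), all of them higher. Over all tested genes that share was 27.7%, but it holds both directions, so these shares are not alike. DESeq2 called 13 (16.7%), all higher, where it called 11.6% of all genes higher. In cell suspensions such as these, a different share of cells of a type and a different amount of RNA per cell cannot be told apart.

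The order of the 4 libraries was nearly the same from gene to gene. In 49 of the 78 genes (62.8%) both knockout libraries lay above both wild-type libraries, a pattern seen in 30.3% of all tested genes, and in 0 of the 78 did both lie below (30.1% of all). The single order wild-type 2, wild-type 1, knockout 2, knockout 1 held for 47 genes (60.3%, against 14.9% of all tested genes). A further 25 differed from it only in that knockout 2 lay below wild-type 1. Wild-type 2 was lowest in 77 genes and knockout 1 highest in 73. The libraries of 1 genotype therefore differed by about as much as the genotypes: the median log2 ratio was 0.82 between the wild-type libraries and 0.54 between the knockout libraries. Within the male-pattern pair the median knockout over wild-type log2 ratio was 0.71, with 74 genes higher, and within the female-pattern pair it was 0.95, with 78 higher. A fit with the library number as a term, which here coincides with the male and female pattern, called 47 of the 78 higher (60.3%, against 22.4% of all genes).

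**Figure D1:**
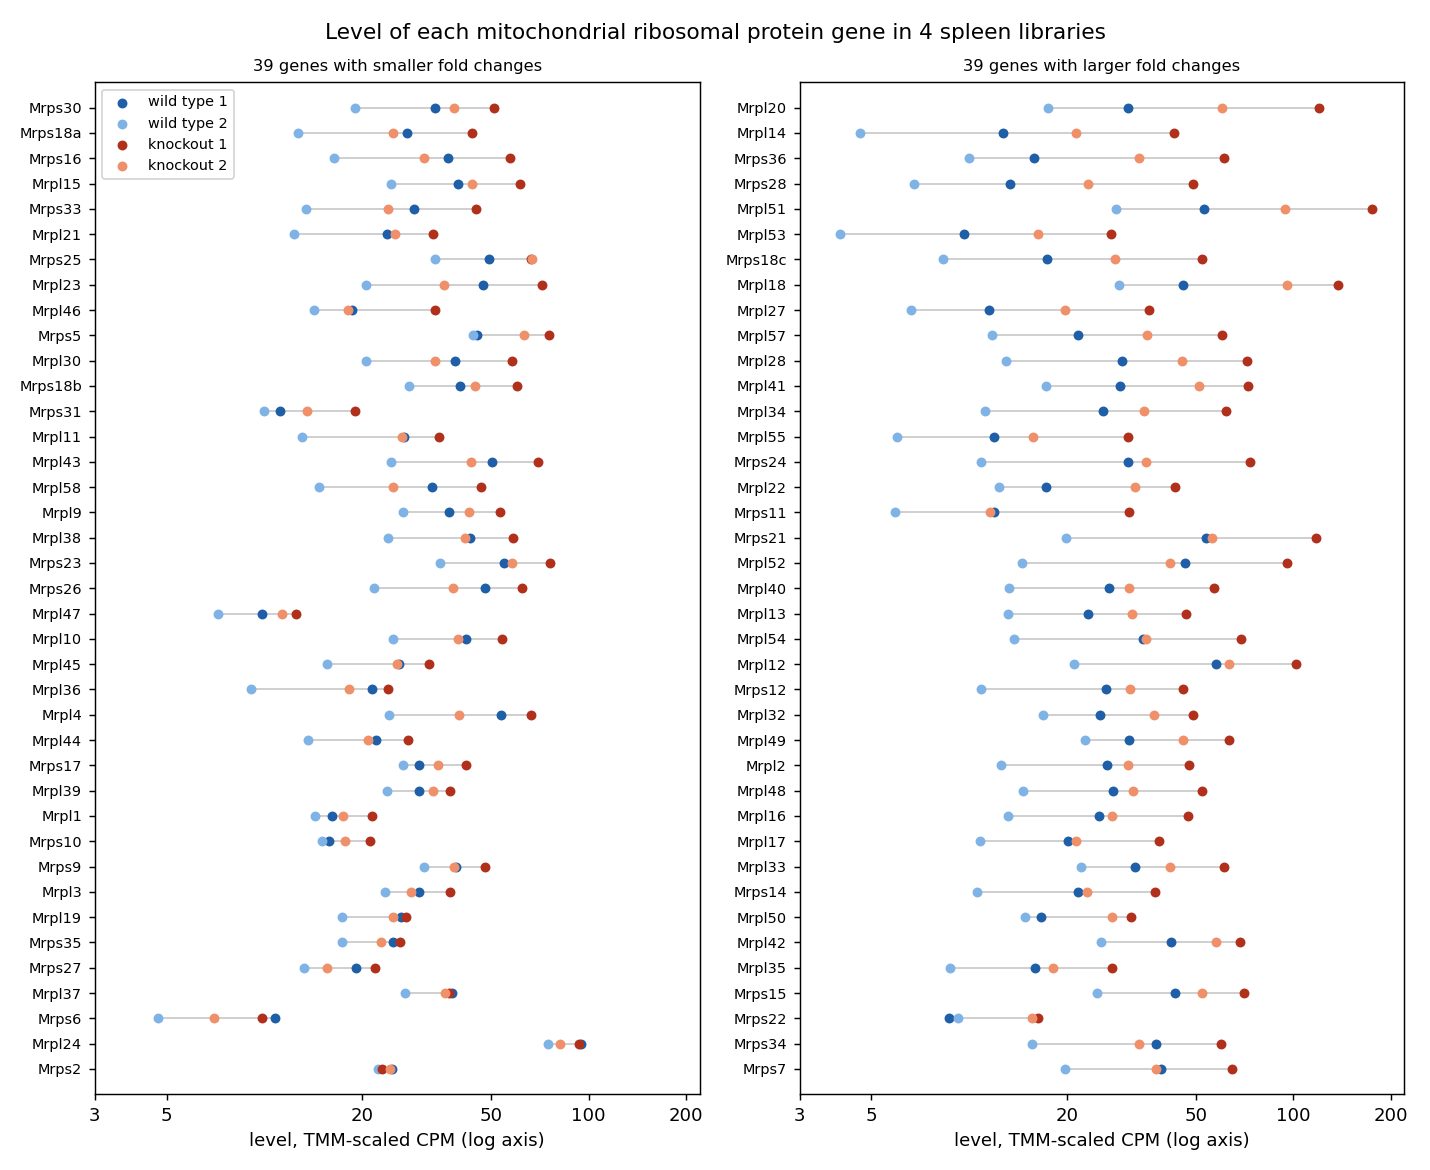
Level of each of the 78 genes in each of the 4 libraries, in TMM-scaled CPM on a log axis, with 1 row per gene, 1 dot per library and rows ordered by fold change (the 39 smaller ones left, the 39 larger ones right). Wild-type 2 lies at the low end of 77 rows and knockout 1 at the high end of 73, and the knockout dots both lie to the right of the wild-type dots in 49. The levels are on the TMM scale, and 58 of the 78 genes were higher when scaled to library totals.

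The number of genes called changed when single libraries were left out. Each such fit keeps a single library of one genotype, so the male and female pattern is no longer balanced between genotypes. A change in these fits can therefore not be told apart from that imbalance. Without wild-type 1 the test called 47 of the 78 genes higher (16.4% of all genes), and without wild-type 2 it called 7 (10.8%). Without knockout 2 it called 4 (Mrpl14, Mrpl20, Mrps28 and Mrps36, with 6.30% of all genes), and without knockout 1 it called 0 (4.23%), with 0 at an unadjusted p under 0.05. The median log2 fold change ran from 0.46 without knockout 1 to 1.28 without wild-type 1. Among these 4 fits, only without wild-type 1 was the share called, 60.3%, above the share of all genes; the 7 called without wild-type 2 are 8.97% and the 4 called without knockout 2 are 5.13%.

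The 3 largest fold changes belonged to Mrpl20 (GRCm38 chr4:155802878-155809975, plus strand, 4 exons), Mrpl14 (chr17:45686322-45698495, plus strand, 3 exons) and Mrps36 (chr13:100735955-100744659, minus strand, 4 exons). Mrps36, the oxoglutarate dehydrogenase subunit, was at 15.9 CPM and 10.0 CPM in the wild-type libraries and 61.0 CPM and 33.5 CPM in the knockout libraries. Its log2 fold change was 1.86 ± 0.47 (SE), and its adjusted p of 0.063 was the smallest of the 78. Mrpl20, a large-subunit protein with a bacterial counterpart, was at 30.8 CPM and 17.5 CPM in the wild type and 119.6 CPM and 60.3 CPM in the knockout. Both knockout libraries of each gene lay well above the higher wild-type library. The log2 fold change of Mrpl20 was 1.90 ± 0.50 (adjusted p = 0.069). Mrpl14, whose bacterial counterpart lies at the interface of the subunits, was at 12.7 CPM and 4.62 CPM in the wild type and 42.9 CPM and 21.4 CPM in the knockout. Its log2 fold change was 1.89 ± 0.60 (adjusted p = 0.10), and again the groups did not overlap.

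At the other end stood Mrps2 (chr2:28468066-28471178, plus strand, 4 exons), Mrpl24 (chr3:87919506-87923672, plus strand, 6 exons) and Mrps6 (chr16:92058270-92112227, plus strand, 3 exons). Mrps2, a small-subunit protein with a bacterial counterpart, was at 24.7 CPM and 22.4 CPM in the wild type and 23.0 CPM and 24.4 CPM in the knockout. These 4 values are the most even of any named gene, and the log2 fold change was 0.01 ± 0.37 (adjusted p = 0.99). Mrpl24, which lines the tunnel through which the new protein leaves, was at 94.7 CPM and 75.0 CPM in the wild type and 93.7 CPM and 81.8 CPM in the knockout. The groups overlapped, with a log2 fold change of 0.05 ± 0.37 (adjusted p = 0.94). Mrps6, of the small-subunit platform, was at 10.8 CPM and 4.69 CPM in the wild type and 9.81 CPM and 6.97 CPM in the knockout, where the knockout values lie between the wild-type ones. Its log2 fold change was 0.12 ± 0.51 (adjusted p = 0.90). The sign of these 3 genes turned with the scaling: with library totals the log2 fold changes were -0.48 for Mrps2, -0.47 for Mrpl24 and -0.40 for Mrps6. Mrps6 shares its strand and part of its span with Slc5a3, and Mrpl24 overlaps Rrnad1 on the opposite strand, so their counts are uncertain where the counting could split such reads.

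Promoter sequence was read for the genes at both ends of this range and for 2 that carry motifs of factors known to act on nuclear genes for mitochondrial proteins. The sequences are RefSeq's, on build GRCm38.p6, and each runs 5′ to 3′ on the gene's own strand up to the base before the start of transcription. The promoter of Mrps36 (chr13:100744660-100744809, minus strand), the gene with the smallest adjusted p, and that of Mrps2 (chr2:28467916-28468065, plus strand), the gene with the smallest fold change, hold none of the motifs searched and are therefore all in lower case. Mrpl45 (chr11:97315566-97315715, plus strand) holds the NRF1 motif 2 times, in capitals, beginning 120 and 38 bases before the start. Mrpl43 (chr19:45006443-45006557, minus strand) holds the ETS motif 2 times, in capitals, beginning 56 and 12 bases before the start. This stretch has 115 bases because it was cut at the nearest annotated exon. The principal transcript of Twnk, the gene of the mitochondrial DNA helicase, starts 116 nt away and is read the other way, and other annotated transcripts make the 2 genes overlap.
Mrps36: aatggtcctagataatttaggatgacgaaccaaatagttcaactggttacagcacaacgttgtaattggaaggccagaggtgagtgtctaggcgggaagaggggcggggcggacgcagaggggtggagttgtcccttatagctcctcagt
Mrps2: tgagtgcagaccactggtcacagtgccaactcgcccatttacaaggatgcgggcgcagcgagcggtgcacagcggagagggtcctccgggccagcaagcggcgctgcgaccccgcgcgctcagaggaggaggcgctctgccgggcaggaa
Mrpl45: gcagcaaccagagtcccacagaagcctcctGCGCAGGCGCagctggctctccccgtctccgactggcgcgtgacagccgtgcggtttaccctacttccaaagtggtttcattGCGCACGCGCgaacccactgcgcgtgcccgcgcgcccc
Mrpl43: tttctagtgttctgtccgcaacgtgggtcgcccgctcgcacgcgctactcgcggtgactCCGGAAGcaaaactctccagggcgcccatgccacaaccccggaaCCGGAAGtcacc

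In windows of 300 bases around the start, 69 of the 78 genes had a RefSeq promoter. Mrpl4, Mrpl13, Mrpl15, Mrpl19, Mrpl38, Mrpl54, Mrps28, Mrps34 and Mrps35 were not matched. On both strands, the ETS motif CCGGAAG was found in 25 of the 69 (36.2%, against 17.9% of the promoters of tested genes and 9.12% of all 27025). The NRF1 motif, which is spelled by the capitals in the Mrpl45 promoter with any base allowed at the position where those differ, was found in 13 (18.8%, against 10.1% and 4.78%), and the YY1 motif AAGATGGC in 12 (17.4%, against 4.62% and 2.88%). At least 1 of these 3 was present in 42 (60.9%, against 29.1% and 15.2%). The E-box CACGTG was present in 5 (7.25%, against 10.0% and 7.24%). The ETS and YY1 motifs can share the letters AAG where they adjoin, and 0 of the 69 held that joined form. The median log2 fold change was 0.91 for genes with the ETS motif and 0.73 for those without it. It was 0.63 with and 0.81 without the NRF1 motif, and 0.89 with and 0.73 without the YY1 motif. The standard deviation of single genes over all 78 was 0.47, which does not gauge a difference between medians. The differences between these medians were not tested.

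Among the 51 large-subunit genes, all had a positive log2 fold change and the median was 0.90. Both knockout libraries lay above both wild-type libraries in 33 (64.7%, against 30.3% of all tested genes). The 3 genes of the stalk, the flexible arm that recruits translation factors, had a median of 0.61. Mrpl12, the stalk protein that also binds the mitochondrial RNA polymerase, was at 57.8 CPM and 21.1 CPM in the wild type and 102.0 CPM and 63.4 CPM in the knockout. Its groups did not overlap, and its log2 fold change was 1.07 ± 0.55 (adjusted p = 0.24). Mrpl10, which anchors Mrpl12 to the particle, was at 41.8 CPM and 24.9 CPM in the wild type and 54.1 CPM and 39.6 CPM in the knockout (0.49 ± 0.42, adjusted p = 0.47). Mrpl11, at the stalk's base, was at 27.0 CPM and 13.1 CPM against 34.6 CPM and 26.6 CPM (0.61 ± 0.46, adjusted p = 0.42). For both, knockout 2 lay below wild-type 1, so the genotypes overlapped.

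Genes of the exit tunnel and its rim (7 in all) had a median log2 fold change of 0.67. Mrpl23, at the rim, was at 47.1 CPM and 20.6 CPM in the wild type and 71.9 CPM and 35.8 CPM in the knockout (0.67 ± 0.54, adjusted p = 0.44). Mrpl45, which tethers the ribosome to the inner membrane and carries the 2 NRF1 motifs printed with the promoters, was at 26.0 CPM and 15.6 CPM against 32.2 CPM and 25.7 CPM (0.48 ± 0.42, adjusted p = 0.48). In both genes, as in Mrpl24, knockout 2 lay below wild-type 1. Mrpl47 was low throughout, at 9.82 CPM and 7.17 CPM in the wild type and 12.5 CPM and 11.3 CPM in the knockout. Its groups did not overlap, with a log2 fold change of 0.49 ± 0.39 (adjusted p = 0.44). The 5 genes of the core near the catalytic centre had a median of 0.97, and the 5 of the central protuberance, the crown of the large subunit, a median of 0.99.

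Among the 26 small-subunit genes the median log2 fold change was 0.70. Both knockout libraries lay above both wild-type libraries in 15 (57.7%, against 30.3% of all tested genes). The 3 genes of the decoding centre and mRNA entry had a median of 1.05. In all 3 both knockout libraries lay above both wild-type libraries, a pattern of 30.3% of all tested genes. Mrps12, whose bacterial counterpart governs decoding accuracy, was at 26.5 CPM and 10.9 CPM in the wild type and 45.8 CPM and 31.4 CPM in the knockout (1.05 ± 0.51, adjusted p = 0.23). The 4 genes of the head had a median of 0.57 and the 7 of the body and platform a median of 0.85, with Mrps18c (1.65) and Mrps6 (0.12) at its ends.

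Mitochondria have 3 S18-type proteins, encoded by Mrps18a, Mrps18b and Mrps18c, where bacteria have a single one. Mrps18c, closest to the bacterial protein, was at 17.4 CPM and 8.33 CPM in the wild type and 52.4 CPM and 28.1 CPM in the knockout (1.65 ± 0.52, adjusted p = 0.10). Mrps18b was at 40.0 CPM and 28.0 CPM against 60.1 CPM and 44.7 CPM (0.62 ± 0.40, adjusted p = 0.33). In both of these small-subunit genes the groups did not overlap. Mrps18a, of the large subunit, was at 27.5 CPM and 12.7 CPM against 43.6 CPM and 24.9 CPM (0.77 ± 0.51, adjusted p = 0.35), with knockout 2 below wild-type 1. Mrps30, the other large-subunit protein with a small-subunit name, was at 33.5 CPM and 19.0 CPM against 51.0 CPM and 38.4 CPM. Its groups did not overlap (0.77 ± 0.43, adjusted p = 0.28).

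Genes with a bacterial counterpart (46) had a median log2 fold change of 0.87, and the 29 without one a median of 0.70, and the ranges of both classes overlapped almost wholly (0.01 to 1.90 and 0.17 to 1.72). Summed over genes, the large subunit held 202.0 and 190.1 counts per 100 counts of the small subunit in the wild-type libraries, and 222.0 and 217.1 in the knockout libraries. This ratio needs no scaling between libraries. Both knockout values exceeded both wild-type values, by an exact two-sided permutation test at p = 0.33, the smallest p that 4 libraries allow. The summed level of all 78 genes was 2378.3 CPM and 1387.2 CPM in the wild type and 4153.7 CPM and 2722.9 CPM in the knockout, 1.83 times as high (exact permutation p = 0.33). As a plain share of all counts it was 0.267% and 0.179% against 0.278% and 0.281%, 1.25 times as high.

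Levels of different genes can be compared only per length, here in CPM per 1000 nt of the principal annotated transcript. On this scale Mrps21 and Mrpl52 ranked highest in both genotypes by the mean of the libraries. Mrps21, of the small-subunit platform, was at 109.8 and 40.7 CPM per 1000 nt in the wild type and 240.9 and 115.4 in the knockout. Its log2 fold change was 1.24 ± 0.58 (adjusted p = 0.21). Mrpl52 was at 110.8 and 35.0 CPM per 1000 nt against 227.9 and 99.9 (1.17 ± 0.64, adjusted p = 0.27). Knockout 2 was just above wild-type 1 for Mrps21 and below it for Mrpl52. The levels of these 2 genes did not differ from each other beyond the spread between libraries. Within libraries, Mrpl52 was the higher in wild-type 1 and Mrps21 in the others. Mrpl24 was the third in the wild type, at 70.7 and 56.0 CPM per 1000 nt, and number 12 in the knockout, at 69.9 and 61.1. In the wild type the lowest 3 were Mrpl35 (4.30 and 2.35 in the wild type, 7.42 and 4.88 in the knockout), Mrpl47 (2.92 and 2.13, then 3.71 and 3.37) and Mrpl17 (2.77 and 1.48, then 5.26 and 2.92), all in CPM per 1000 nt. Across the wild-type libraries the values of neighbours in this order overlapped, but within each wild-type library the order held. In the knockout Mrpl47 and Mrpl17 remained the lowest 2, while Mrpl35 ranked number 73 and did not overlap with Mrpl47. Mrpl35 had a log2 fold change of 0.89 ± 0.46 and Mrpl17 of 0.94 ± 0.49 (adjusted p = 0.25 for each). All 3 have long annotated transcripts, 7300 nt for Mrpl17, so their place rests on that annotation. Over the 78 genes the rank order of the levels per length was close between genotypes (Spearman's rho 0.92, across genes that share the same libraries and lengths).

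Transcript length went along with the fold change and with the difference between libraries of 1 genotype. The 78 transcripts ran from 418 to 7300 nt with a median of 1302.0 nt, against 2949.5 nt for the other tested protein-coding genes. Spearman's rho between length and log2 fold change over the 78 genes was -0.49, and it was -0.43 for wild-type 1 over wild-type 2 and -0.48 for knockout 1 over knockout 2. Over the 12866 other protein-coding genes tested, the same 3 values were -0.40, -0.59 and -0.57. All these points share the same 4 libraries, and the correlations are given as descriptions. Short transcripts in general were thus higher in knockout 1 and lower in wild-type 2.

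Set beside other genes of like length, the mitochondrial ribosomal protein genes were still on the higher side. In the shortest class, up to 1018 nt, their median log2 fold change was 1.21, against 0.78 for the 838 other genes. From 1031 to 1849 nt it was 0.64 against 0.42, and from 1962 nt up it was 0.67 against -0.21. The knockout libraries both lay above the wild-type libraries in 73.1%, 53.8% and 61.5% of the genes in these 3 classes, against 45.5%, 42.4% and 27.4% of the other genes. After the trend with length was removed from each library, an alternative chosen after seeing the data, the median was 0.53 and 67 of the 78 genes were higher. That fit called 6 of them higher (7.69%), a smaller share than the 11.8% of all genes it called higher. They were Mrpl18, Mrpl20, Mrpl51, Mrpl57, Mrps28 and Mrps36. All 6 were also among the 13 that DESeq2 called without that correction. The source of the trend was not tested.

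**Figure D2:**
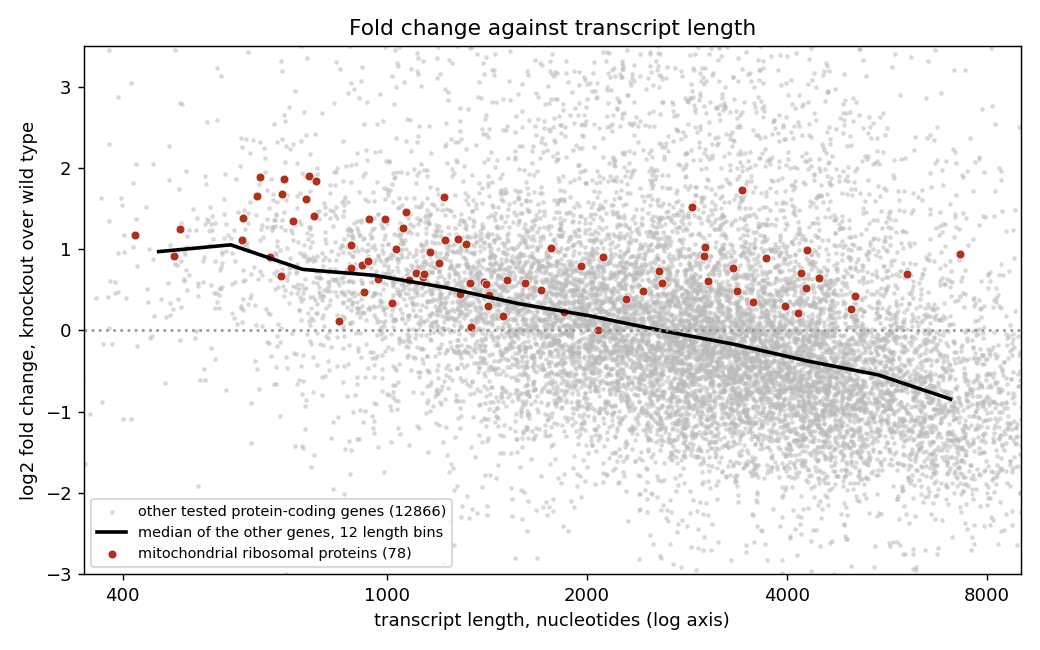
Fitted log2 fold change, knockout over wild type on the TMM scale, against the length of the principal transcript in nt (log axis), with the 78 genes in red, the other tested protein-coding genes in grey and a black line for the median of the grey genes in length bins. Both sets slope downwards (Spearman's rho -0.49 and -0.40), and most red dots lie above the black line; genes outside the axis ranges are not drawn.

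Of these 6 genes, 4 have not been described yet and were picked out after their values were seen. Mrpl18, of the central protuberance, was at 45.8 CPM and 28.9 CPM in the wild type and 137.5 CPM and 95.9 CPM in the knockout (1.64 ± 0.43, adjusted p = 0.067 without the length correction). Mrpl51, a protein without a bacterial counterpart, was at 52.9 CPM and 28.3 CPM against 174.5 CPM and 94.0 CPM (1.72 ± 0.50, adjusted p = 0.084). The level of each in the lower knockout library was well above that in the higher wild-type library. Mrps28, of the small subunit, was at 13.4 CPM and 6.76 CPM against 49.0 CPM and 23.3 CPM (1.84 ± 0.54, adjusted p = 0.087). Mrpl57, a short protein of the large subunit, was at 21.6 CPM and 11.8 CPM against 60.2 CPM and 35.4 CPM (1.52 ± 0.48, adjusted p = 0.10). Their groups did not overlap either.

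The 5 proteins of the mitochondrial ribosome that carry other names had a median log2 fold change of 1.02. Gadd45gip1 was at 61.8 CPM and 21.8 CPM in the wild type and 169.6 CPM and 74.5 CPM in the knockout (1.55 ± 0.62, adjusted p = 0.16). Aurkaip1 was at 54.0 CPM and 22.4 CPM against 128.2 CPM and 62.2 CPM (1.32 ± 0.56, adjusted p = 0.18), and Chchd1 at 39.6 CPM and 18.4 CPM against 75.6 CPM and 41.9 CPM (1.02 ± 0.51, adjusted p = 0.24). Dap3, a GTP-binding protein of the small subunit, was at 52.1 CPM and 29.9 CPM against 84.6 CPM and 54.8 CPM (0.77 ± 0.44, adjusted p = 0.29). In these 4 both knockout libraries lay above both wild-type libraries, a pattern of 30.3% of all tested genes. Ptcd3, an RNA-binding protein of the small subunit, was the exception, at 31.7 CPM and 51.3 CPM against 35.3 CPM and 46.5 CPM (-0.02 ± 0.41, adjusted p = 0.98), and here wild-type 2 was highest and not lowest.

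Genes for the machinery around the ribosome had smaller medians, and those for mitochondrial mass a like one. In edgeR's test 0 of 120 genes on the 8 mitochondrial lists were called, 13 (10.8%) had an unadjusted p under 0.05, and DESeq2 called 5 higher (4.17%) and 3 lower (2.5%), all smaller shares than those of all tested genes (27.7%, 11.6% and 6.86%). The 24 genes for ribosome assembly had a median log2 fold change of 0.39, with 17 positive. The 15 translation factors had a median of 0.08, the 20 tRNA synthetases and amidotransferase subunits -0.01, and the 19 genes for mitochondrial DNA upkeep and expression 0.01. The 15 genes taken as a gauge of mitochondrial mass, such as citrate synthase (Cs, 0.56 ± 0.38) and the outer-membrane channels, had a median of 0.82 with all 15 positive. Of 9 regulators tested, 4 were positive and 5 negative, with a median of -0.35. Nrf1 was the highest at 0.81 ± 0.36 (adjusted p = 0.20), and Myc was at 0.02 ± 0.37 (adjusted p = 0.98). Gabpa was at -0.59 ± 0.57 (adjusted p = 0.52), and Ppargc1a, with low counts, was the lowest at -1.25 ± 0.66 (adjusted p = 0.26). Mycn did not pass the filter on low counts.

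**Figure D3:**
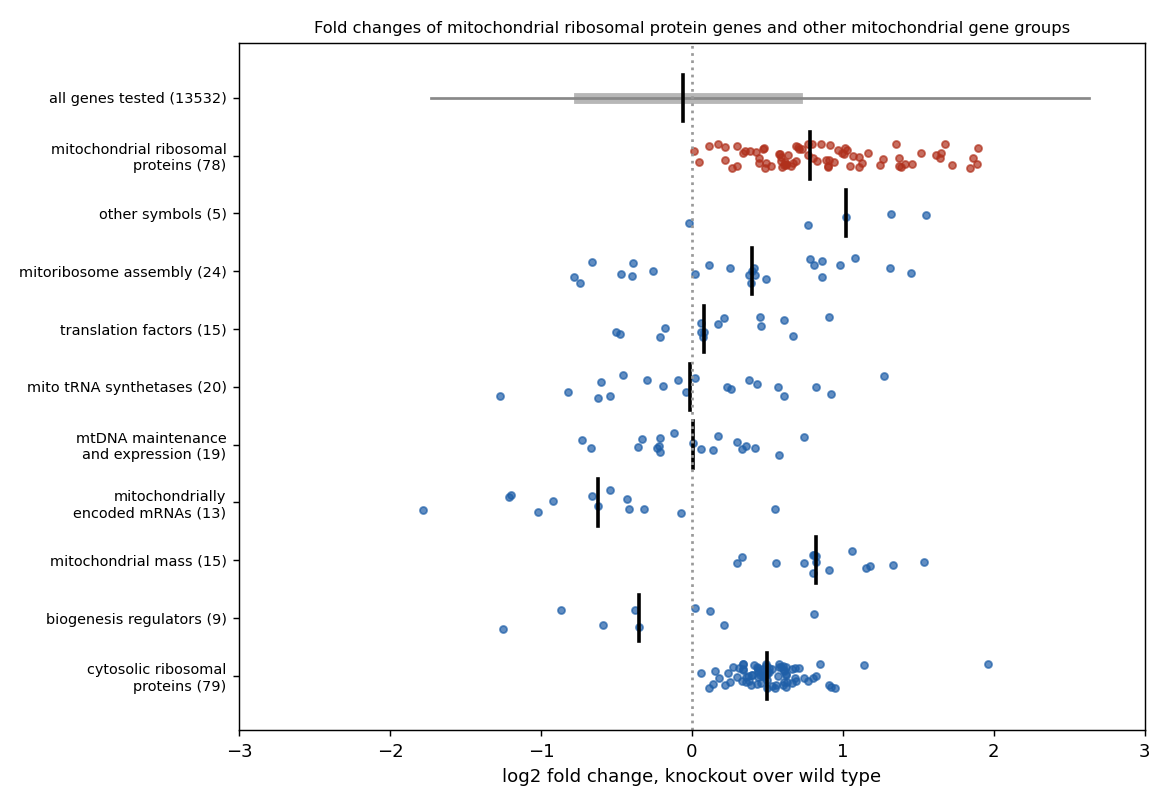
Fitted log2 fold change, knockout over wild type on the TMM scale, of each gene (dots) in the family and in the companion lists, with the median as a black bar; for all genes tested, the thick and thin grey lines hold the middle 50% and 90% of values. The family's median is 0.78 and that of mitochondrial mass genes 0.82, while translation factors (0.08) and tRNA synthetases (-0.01) lie near the median of all genes. On library totals the family's median is 0.25.

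The mRNAs made inside the mitochondrion, which these ribosomes translate, lay the other way. Of 13, 12 had a negative log2 fold change and the median was -0.62. Counts of the 78 genes per 100 counts of these mRNAs were 3.03 and 1.74 in the wild type and 6.95 and 5.57 in the knockout, with no overlap (exact two-sided permutation p = 0.33, the smallest possible). This ratio is within a library and does not depend on scaling. Per 100 counts of the mitochondrial mass genes the values were 125.8 and 99.5 against 123.2 and 103.7, which overlapped (exact permutation p = 1.0). The 2 ribosomal RNAs of the mitochondrion were not analysed here.

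Cytosolic ribosomal protein genes, which build the ribosome of the rest of the cell, overlapped between genotypes. Of 79 tested, all had a positive log2 fold change with a median of 0.50. However, both knockout libraries lay above both wild-type libraries in only 1 (1.27%, against 30.3% of all tested genes). The spread within the wild type was larger than the difference between genotypes, with a median log2 ratio of 1.35 between wild-type 1 and wild-type 2. edgeR called 0 of them, against 5.90% called higher and 0.392% lower over all tested genes. At an unadjusted p under 0.05 there was 1 (1.27%, against 27.7% of all tested genes in either direction). DESeq2 called 1 higher (1.27%, against 11.6%). Per 100 counts of cytosolic ribosomal protein genes the mitochondrial ones had 2.13 and 3.10 in the wild type and 2.79 and 3.57 in the knockout, which overlapped (exact two-sided permutation p = 0.67).

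**Figure D4:**
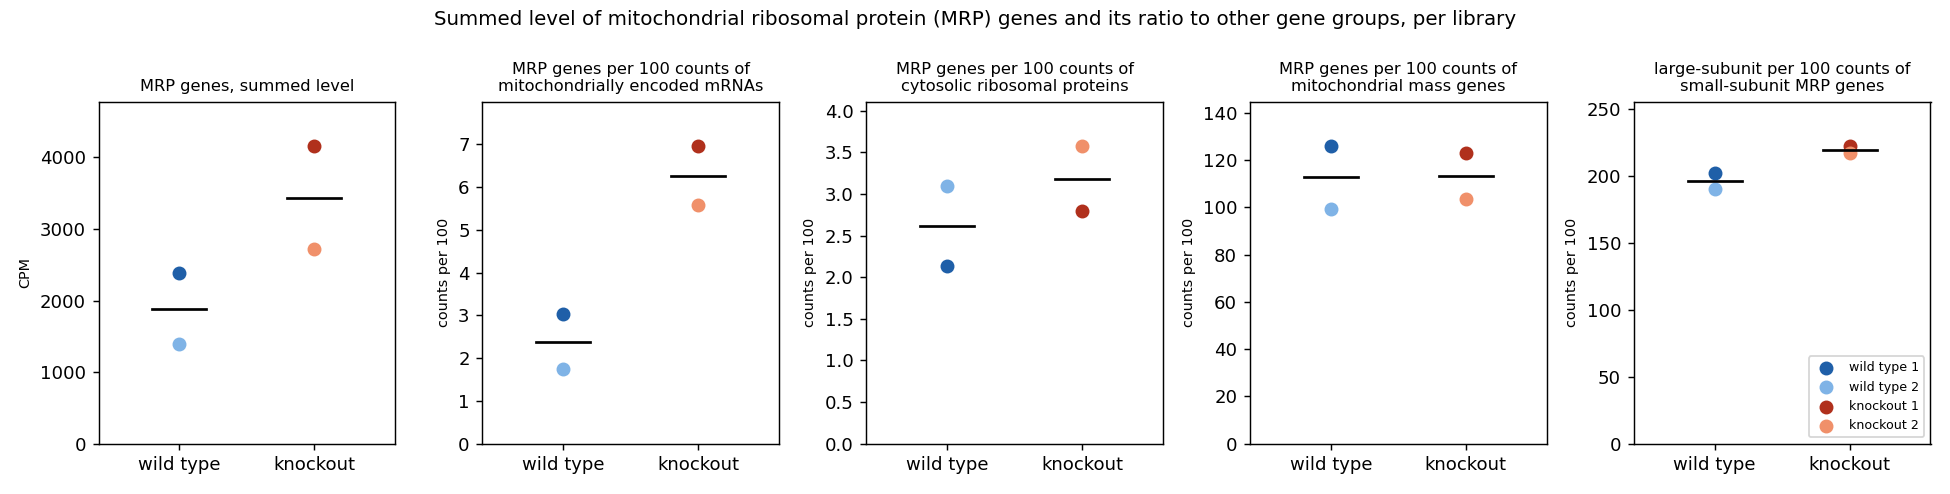
Summed level of the 78 mitochondrial ribosomal protein (MRP) genes in TMM-scaled CPM (first panel) and ratios of summed counts within each library, in counts per 100 counts with no scaling between libraries (other panels), with 1 dot per library and a bar for the mean. The knockout dots (6.95 and 5.57) stand above the wild-type dots (3.03 and 1.74) in the ratio to mitochondrially encoded mRNAs and overlap with them in the ratios to cytosolic ribosomal protein genes and to mitochondrial mass genes.

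Markers of dividing cells and of blood-forming cells moved with the genotype. edgeR called 23 of 26 cell cycle genes higher, 9 of 15 erythroid genes and 14 of 14 neutrophil genes, against 5.90% of all tested genes. Their summed levels were 1045.5 CPM and 1460.9 CPM in the wild type against 8283.4 CPM and 6599.3 CPM in the knockout for the cell cycle, and 1656.3 CPM and 2843.3 CPM against 21530.4 CPM and 13642.2 CPM for erythroid genes. Neutrophil genes summed to 916.6 CPM and 381.0 CPM against 29937.2 CPM and 27897.0 CPM. B cell genes summed to 6662.0 CPM and 5928.4 CPM against 3469.6 CPM and 2870.2 CPM, and T cell genes to 1504.6 CPM and 1103.0 CPM against 592.6 CPM and 572.5 CPM. All 10 B cell and all 10 T cell genes had a negative fold change, and edgeR called 0 of either. At an unadjusted p under 0.05 there were 6 and 8, against 27.7% of all tested genes in either direction. DESeq2 called 6 and 4 lower, against 6.86% of all tested genes. Macrophage and monocyte genes (6, median log2 fold change 0.48), NK cell genes (4, -0.29), plasma cell genes (4, -0.40) and megakaryocyte genes (3, 1.24) had 1 call among them, a megakaryocyte gene. The part of these cell types in the difference was not tested.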

How the data were processed

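For 4 spleen-cell libraries, estimated counts per gene were available as the authors deposited them. Per the submitters' processing notes, the tools were RSEM 1.2.25, STAR 2.5.0 and SAMtools 1.18, on GRCm38. Neither the strand setting nor the annotation release used is given in the sources used here. RSEM gives estimated (expected) counts, in which reads shared by near-identical genes are split by estimation, and the deposited values were already whole numbers, so rounding changed none. The annotation holds 5 pseudogenes named after the family (of Mrpl23, Mrpl48 and Mrps36), and pseudogenes under other names were not counted. Of the 78 genes, 36 overlap an annotated gene on the opposite strand and 13 one on the same strand. The counts of such genes are uncertain to that extent.

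The 92 spike-in rows held 0 counts and were left out. Symbols, positions and principal transcripts (APPRIS, then the longest coding sequence) came from GENCODE M21 on GRCm38, which matched 25251 of 25509 gene rows. From the deposited counts, knockout was compared with wild type by edgeR 4.0.16 (R 4.3.3) with TMM scaling, filterByExpr and the robust quasi-likelihood F test, which has 2 residual degrees of freedom here. p-values were adjusted by the Benjamini-Hochberg method over all 13532 genes tested, and a call is an adjusted p under 0.05. The code was tested on simulated counts that were less dispersed than these data and had no library effect other than depth. That check does not show how the test performs on data like these. Ratios of single libraries used CPM plus 0.5. Single values per library were compared by an exact two-sided permutation test.

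Genes given with full values were those with the 3 highest and 3 lowest fold changes, those with the 3 highest and 3 lowest wild-type levels per length, the S18, stalk and tunnel-exit genes, Mrps12, Mrps30, Mrps36 and any that passed the test. The genes and the companion lists were chosen with earlier results of these data known. Alternatives were DESeq2 1.42.0, its size factors, library totals, no low-count filter, a replicate block, removal of haemoglobin and mitochondrially encoded genes, and leaving out each library. A correction for transcript length (a lowess trend of span 0.3 per library) and the comparisons within same-numbered libraries were chosen after seeing the data.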

Additional observations from a re-analysis of the deposited data

How the results depend on the processing

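The median log2 fold change of the 78 genes was positive under every alternative run. It was 0.78 as reported, 0.25 with library totals, 0.53 with the length correction, 0.95 between the libraries numbered 2, and 0.46 to 1.28 when each library was left out. The number called higher, 0 as reported, was 13 with DESeq2, 10 without the filter on low counts (7.36% of all genes), 6 with the length correction and 0 to 47 when each library was left out. On the 8 mitochondrial lists, 0 calls as reported became 4 with library totals, 8 with DESeq2, 3 without the filter, 9 with the length correction and 0 to 26 without 1 library. For cytosolic ribosomal protein genes, 0 became 1 with DESeq2, without the filter and with the length correction, and 0 to 5 without 1 library. DESeq2's size factors and the removal of haemoglobin and mitochondrially encoded genes left all of these at 0. The list counts are in either direction, of 120 tested genes on the mitochondrial lists and 79 cytosolic ribosomal protein genes. Of all genes, library totals called 5.78% higher and 10.2% lower, and DESeq2 11.6% and 6.86%. Without the filter these shares were 7.36% and 2.82%, and with the length correction 11.8% and 4.48%. In each of these settings the share of the 120 genes called was below that of all genes. Each fit without 1 library leaves a single library in 1 genotype, so the male and female pattern is not balanced in it.

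The labels number the libraries of both genotypes without saying that a number marks a shared litter, batch or day. Same-numbered libraries deviated together from their group means (correlation 0.603 over genes), but there are only 2 pairs. The number also coincides with the male and female pattern of the libraries, so a block by number is a block by that pattern. With the replicate number as a block, 47 of the 78 genes were called higher (22.4% of all genes). The block leaves fewer residual degrees of freedom than the 2 of the main fit. In either direction, that fit called 38 of the 120 tested genes on the mitochondrial lists and 14 of the 79 cytosolic ribosomal protein genes. Of all genes it called 22.4% higher and a further 19.7% lower. With the block and the length correction, 25 of the 78 genes were called higher (17.8% of all genes), with a median of 0.53. Most of the 47 called with the block alone were also called without wild-type 1. Both fits use the same remaining libraries, so this overlap is not independent evidence.

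Among the genes named, the sign turned in 17 cases. For Mrps2 the log2 fold change was -0.48 with library totals, -0.0029 without the filter, -0.18 with the length correction, -0.06 without wild-type 2 and -0.02 without knockout 2, with 0.07 as the highest value without 1 library. For Mrpl24 it was -0.47 with library totals, -0.42 with the length correction, -0.11 without wild-type 2 and -0.05 without knockout 1 (highest 0.21). For Mrps6 the same 4 settings gave -0.40, -0.52, -0.36 and -0.15 (highest 0.82). Library totals gave -0.02 for Mrpl47, -0.04 for Mrpl10 and -0.03 for Mrpl45, and the length correction gave -0.11 for Mrpl23. In another 43 cases a named gene passed the threshold under an alternative, and 171 kept their direction and side; the cause was not tested. The effect of depth was not tested.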

Other observations

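The 78 genes lie on 17 chromosomes, with at most 11 on any one, so they share no single locus. Of them, 22 (28.2%) have a principal transcript that starts within 1000 nt of that of a protein-coding gene read the other way, against 11.3% of all tested protein-coding genes. The fold changes of these neighbours did not follow the family: 11 of 22 were positive and their median log2 fold change was 0.08. Distances here are between those starts, and other annotated transcripts can make such genes overlap. The pair Mrps11 and Mrpl46, 30 nt apart by this measure, lies within the family itself and counts on both sides. Mrpl43 starts 116 nt from Twnk, the mitochondrial DNA helicase, which was at 17.0 CPM and 15.5 CPM in the wild type and 11.8 CPM and 14.1 CPM in the knockout (-0.33 ± 0.37, adjusted p = 0.59). Mrps12 starts 232 nt from Sars2, the mitochondrial seryl-tRNA synthetase (0.38, adjusted p = 0.61), and Mrpl18 starts 37 nt from Tcp1, a subunit of the cytosolic chaperonin (0.82, adjusted p = 0.24).

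In edgeR's test 2 of these 22 neighbours passed, both higher, where 5.90% of all tested genes were called higher. Whether the neighbours exceed that share was not tested. Ska3, a kinetochore gene 71 nt from the start of Mrpl57, was at 1.31 CPM and 2.16 CPM in the wild type and 16.2 CPM and 14.0 CPM in the knockout (3.12 ± 0.46, adjusted p = 0.014). Ncapd2, a condensin gene 464 nt from the start of Mrpl51, was at 73.1 CPM and 71.2 CPM in the wild type and 450.7 CPM and 368.3 CPM in the knockout (2.5 ± 0.41, adjusted p = 0.017). These neighbours were picked out after their values were seen.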
